A study of Mus musculus with 2 samples.

Results

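Peaks of Ronin (gene symbol Thap11), which contacts DNA through a zinc finger of the THAP type, are described here along mouse chromosome 8. The members, chosen by chromosome and by their rank in height, are all peaks on chromosome 8 in the deposited list of Ronin binding sites: 1853 of 37360 peaks in the series, with positions in mouse build mm9. The list came from chromatin immunoprecipitation and sequencing (ChIP-seq) of retina from wild-type mouse pups of the CD1 background at postnatal day 0, with more than 10 retinae pooled in a sample. There was 1 Ronin sample, made with a custom antibody against Ronin, and 1 control sample. The control has the title of an input sample but normal rabbit IgG as its antibody, and its own values were not analysed here. With 1 library of each kind there are no replicates, and intervals below are exact 95% intervals that cover counting error only.

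Ronin works with the co-regulator HCF-1 and binds mostly near the starts of genes, where it recognises an element that begins with the letters ACTACA. It is known from embryonic stem cells, where it is needed for self-renewal, and in the developing retina it is known as a regulator of genes for mitochondrial function. Thap11, the gene that encodes Ronin, lies on chromosome 8. Peaks of the list were not placed on genes here, because the gene tables used are of build GRCm38.

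The Ronin element was looked for in promoters of chromosome 8, and some of its copies are shown so that a reader can see what the factor is known to recognise. The motif searched was ACTACANNTCCC on both strands, where N is any base, in windows from 250 bases before to 50 bases after each start of a protein-coding gene (RefSeq, GRCm38.p6). Of the 1042 protein-coding genes of the chromosome, 725 had such a window. The shown sites are from the genes on either side of Thap11 (Cenpt and Nutf2), from a gene with several copies (Mrpl34), from a pair of genes that share a copy (Rpgrip1l and Fto) and from Rnaseh2a. Capitals mark the motif, 12 bases are given on either side, and each is written 5′ to 3′ on the strand that reads ACTACA.
Cenpt: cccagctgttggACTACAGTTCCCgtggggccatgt
Nutf2: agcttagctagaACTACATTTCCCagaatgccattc
Mrpl34, first copy: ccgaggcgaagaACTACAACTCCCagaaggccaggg
Mrpl34, next copy: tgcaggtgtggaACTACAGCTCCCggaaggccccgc
Mrpl34, last copy: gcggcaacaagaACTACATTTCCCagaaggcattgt
Rpgrip1l and Fto: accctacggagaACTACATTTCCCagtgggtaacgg
Rnaseh2a: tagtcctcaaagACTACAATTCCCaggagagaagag

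These genes have varied roles. Cenpt encodes a protein of the centromere, Nutf2 a carrier that returns Ran to the nucleus, Mrpl34 a protein of the mitochondrial ribosome, Rpgrip1l a protein of the base of the cilium, and Rnaseh2a the catalytic subunit of an enzyme that cuts RNA in RNA-DNA hybrids. Thap11 itself held no match in its window, which says only that these letters are not in those 300 bases. Among the 10 protein-coding genes on each side of Thap11, 18 had a window, and the 2 with a match were its direct neighbours Cenpt and Nutf2.

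On chromosome 8 the motif was present in the window of 29 of 725 genes, or 4.0% (2.69% to 5.69%). The other autosomes in the table had it in 472 of 15731 genes, or 3.0% (2.74% to 3.28%), and over all promoters of the table the share was 2.92%. Chromosomes 13 (5.93%) and 7 (4.36%) had a higher share than chromosome 8 among the 18 autosomes in the table, which lacks chromosome 18. The intervals of chromosome 8 and the other autosomes overlap. The 29 genes held 27 distinct sites, and 5 of the genes had 2 or more. Of these sites, 8 lay in the windows of 2 neighbouring genes. Both genes of such a pair are counted in the shares of genes given here, so the intervals of those shares are too narrow. The base before the motif was A or G at 26 of the 27 sites, and the next bases after it were AG at 18. The 2 free bases were AC at 8 sites and TT at 7. By gene order, 20 of the 29 genes lay in the later part of the chromosome, past its middle gene, or 69.0% (49.2% to 84.7%), and so did 400 of the 725 genes searched, or 55.2% (51.5% to 58.8%). Whether any of these sites lies in a peak was not analysed here.

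The peaks of chromosome 8 ran from 3.13 to 131.6 Mb, a span of 128.5 Mb. Every peak of the chromosome is 191 bp wide and carries the same score, so height was read from the order of the list, which falls from the highest peak. Tags (mapped reads) per peak were recovered from that order, and for high peaks they are lower bounds. Strong peaks are the first rows of the list, down to the last peak of 14 tags. Heights and the strong class are what chose these members, so they are given as description with no test.

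In number of peaks chromosome 8 was close to the other autosomes. It held 14.4 peaks per Mb, against 15.02 over the other 18 autosomes, a ratio of 0.960 (0.916 to 1.01). Among those 18 the density ran from 13.1 to 16.0 peaks per Mb with a median of 15.3, and 13 of them were denser than chromosome 8. Its makeup by height was also close to theirs. Peaks of 6 or fewer tags were 46.5% of chromosome 8 and 46.7% of the other autosomes, and those of 7 tags were 27.6% and 27.5%. Peaks of 8 or 9 tags were 18.7% and 19.4%, and peaks of 10 to 13 tags were 5.77% and 5.33%. Per protein-coding gene in place of length the ratio of all peaks was 1.02 (0.973 to 1.07).

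**Figure D1:**
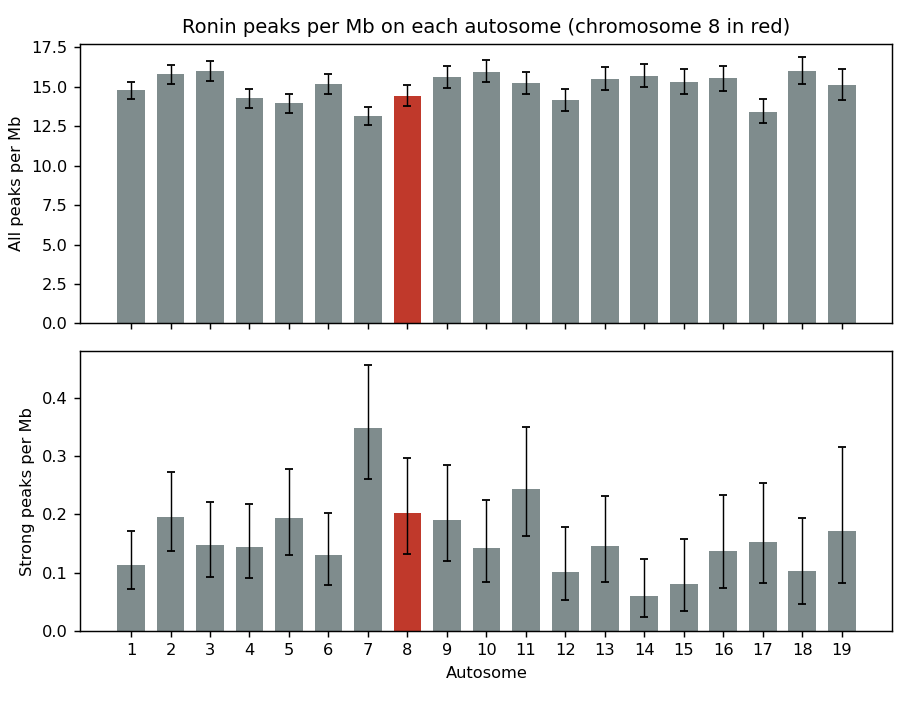
Peaks per Mb (top) and strong peaks per Mb (bottom) on each of the 19 autosomes, with chromosome 8 in red and bars on top that give exact Poisson 95% intervals for counting error. In peaks per Mb chromosome 8 (14.4) sits in the lower part of the range, and in strong peaks per Mb (0.202) only chromosomes 7 and 11 are above it.

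Strong peaks per Mb on chromosome 8 were above the value of the other autosomes, but within the counting error. It held 26 of them, or 1.40% of its peaks (0.919% to 2.05%), where 1.06% of all peaks in the list were strong. The rule used this ranking, so nothing is read from the count. Per Mb there were 0.202 strong peaks, against 0.159 over the other autosomes, a ratio of 1.27 (0.820 to 1.90). Chromosomes 7 (0.349 per Mb) and 11 (0.244 per Mb) were above chromosome 8, and chromosomes 2 (0.196 per Mb) and 5 (0.194 per Mb) came next below it. The exact Poisson interval of chromosome 8 ran from 0.132 to 0.296 per Mb and held the values of chromosomes 11, 2 and 5. That of chromosome 7 ran from 0.261 to 0.458, which did not hold the value of chromosome 8 but overlapped its interval. These intervals take strong peaks as independent, although many lie close together, so they are too narrow. Counting strong peaks at most 1 Mb apart as 1 locus left 17 loci from 52 strong peaks on chromosome 7. On chromosome 8 it left 15 loci from 26. Per 100 protein-coding genes, chromosome 8 held 2.50 strong peaks and only chromosome 7 held more, with 2.56. A stretch from 108200000 to 109000000, picked for its strong peaks and described further on, held 6 of the 26. Leaving it out of chromosome 8 alone, which lowers the ratio by construction, gave 0.985.

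**Figure D2:**
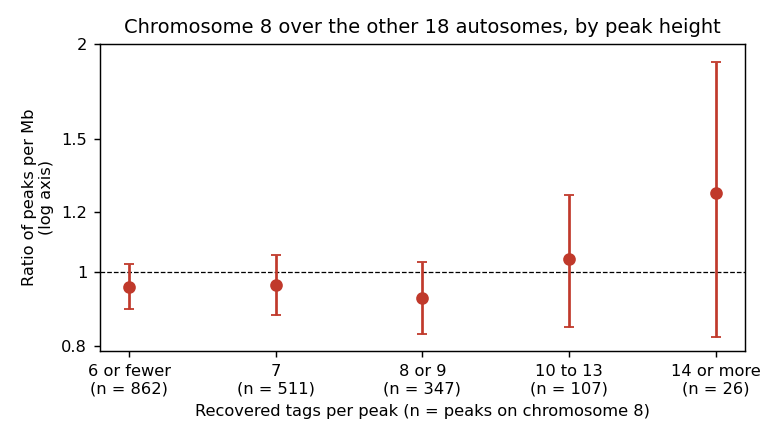
Ratio of peaks per Mb on chromosome 8 to that on the other 18 autosomes (log axis) by recovered tags per peak, with exact 95% intervals. All intervals include 1, and the point for 14 or more tags (ratio 1.27) rests on 26 peaks.

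The highest peak of the chromosome was also among the highest of the whole list. It lay at 124473920 to 124474110, in row 9, with at least 43 tags, and it had no other peak within 50 kb. The next was at 73988557 to 73988747 in row 16, with at least 39 tags. A peak at 93837223 in row 23 had at least 36 tags, and one at 98331974 in row 39 had at least 31. Rows 45 and 46 were both on chromosome 8, at 42324666 and at 108861982, with at least 30 tags each. In all, 9 of the first 100 rows and 15 of the first 200 were on chromosome 8, which held 1853 of the 37360 peaks in the list. In recovered tags, which are lower bounds for high peaks, the median strong peak had 21.5 on chromosome 8 and 18 on the other autosomes. Height chose these members, so nothing is read from that difference or from the counts among the first rows.

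The limit of the strong class fell between rows 365 and 448 on this chromosome. Just inside it were peaks at 12576738, 22128326 and 59029629, with 14 tags each. The first 6 peaks outside it, at 17332027, 23581992, 98377624, 99466783, 107086678 and 109674025, had 13 tags each. Further peaks of 13 tags were not listed here.

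Strong peaks were unevenly placed along the chromosome. Only 6 of the 26 lay before the midpoint of the span at 67.4 Mb, at 12576738, 22128326, 42324666, 47060728, 47772261 and 59029629. The other 20, or 76.9% (56.4% to 91.0%), lay between 73.4 and 124.5 Mb. That interval takes strong peaks as independent, but 16 of the 26 had another strong peak within 1 Mb, so it is too narrow. On the other autosomes 190 of 362 strong peaks, or 52.5% (47.2% to 57.7%), lay past the midpoint. Chromosome 8 had the highest such share of the 19 autosomes, and chromosome 5 was next with 75.9%, a gap far smaller than the counting error. Lower peaks of chromosome 8 lay on both sides of the midpoint in nearly equal numbers: 50.1% of those of 6 or fewer tags lay past the midpoint, 49.3% of those of 7 tags, 52.7% of those of 8 or 9 tags and 52.3% of those of 10 to 13 tags. Without the dense stretch, 14 of 20 strong peaks (70.0%) lay past it. The difference between strong and lower peaks was not tested here, because the part was chosen with these positions known.

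**Figure D3:**
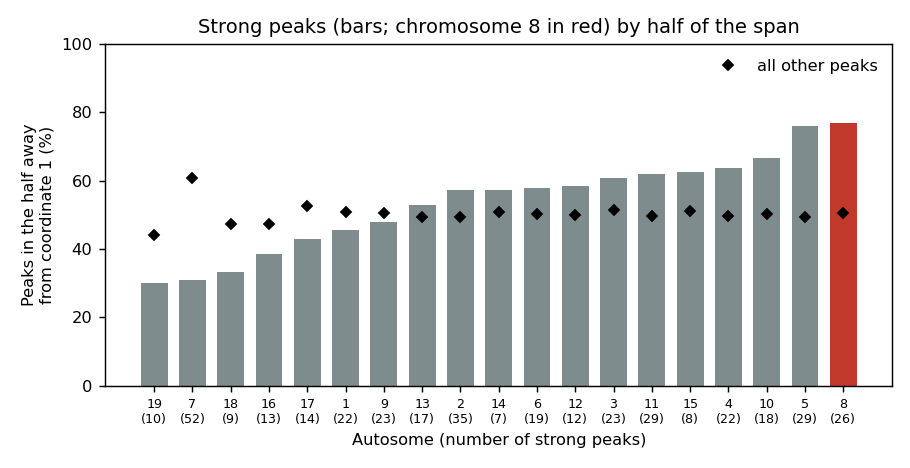
Percent of strong peaks past the midpoint of each autosome's span (bars, ordered by height, chromosome 8 in red) and percent of all other peaks (diamonds), with the number of strong peaks under each chromosome. Chromosome 8 has the highest bar at 76.9%, with chromosome 5 at 75.9% beside it, and its diamond is at 50.5%.

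In steps of 10 Mb, similar numbers of peaks held different numbers of strong ones. From 90 to 120 Mb there were 4, 6 and 6 strong peaks among 156, 160 and 162 peaks. From 10 to 20 Mb there were 162 peaks, and 1 of them was strong. From 30 to 40 Mb there were 146 peaks with 0 strong, and from 60 to 70 Mb 148 peaks with 0 strong.

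Strong peaks of chromosome 8 formed a few loose groups. A group of 6 lay from 108232117 to 108939233. A group of 4 lay from 113443513 to 114516341, with members at 114167201 and 114378264. Pairs lay at 47060728 and 47772261, at 73421443 and 73988557, and at 93593824 and 93837223, where the distance between the starts was 712, 567 and 243 kb. In all, 16 of the 26 had another strong peak within 1 Mb and 10 had none. Counting strong peaks at most 1 Mb apart as 1 locus left 15 loci, and the ratio of loci per Mb to the other autosomes was 1.06.

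**Figure D4:**
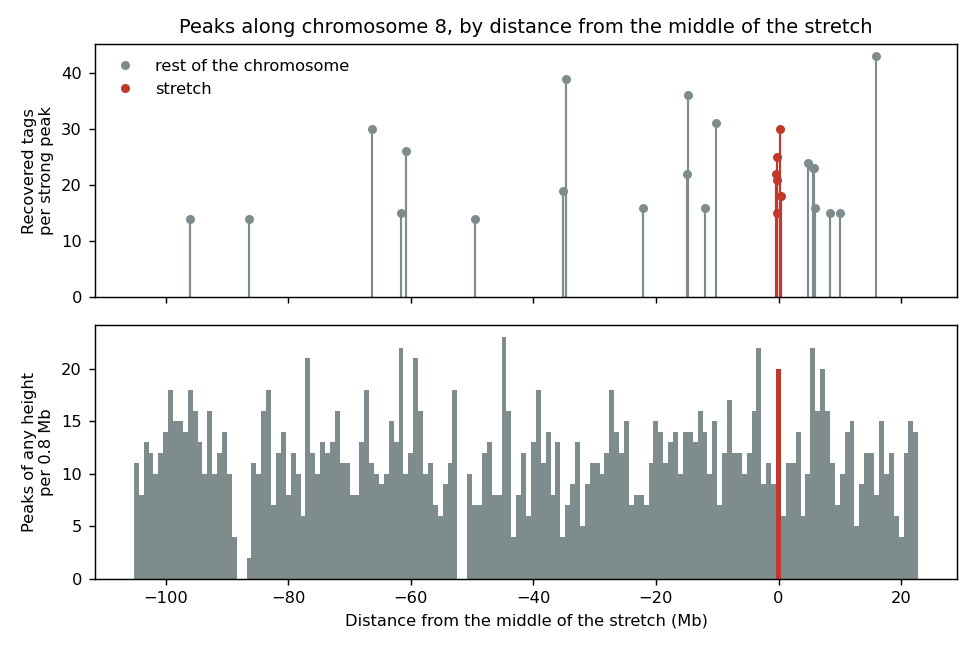
Strong peaks by recovered tags (top) and peaks of any height per 0.8 Mb (bottom) along chromosome 8, as distance in Mb from the middle of the dense stretch, which is in red. The 6 strong peaks of the stretch stand together, of the other 20 strong peaks 13 lie to the left of it and 7 to the right, and peaks of any height cover the chromosome except for a few gaps.

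The stretch from 108200000 to 109000000 was picked for its strong peaks, so its values are a description with no test. It held 20 peaks, of which 6 were strong. That is 7.5 strong peaks per Mb, against 0.157 per Mb in the rest of the chromosome (20 in 127.7 Mb), a ratio of 47.9. With the edges moved outwards by 0.5 Mb the ratio was 21.1. When the chromosome was laid out in 160 tiles of 0.8 Mb, 141 held 0 strong peaks, 17 held 1, 1 held 3 and the stretch held 6. Such a number was not limited to chromosome 8: among windows of 0.8 Mb that start at a strong peak, the richest held 6 strong peaks on chromosomes 3 and 7 as well, and 5 on chromosome 13. On chromosome 8 the tile with 3 strong peaks ran from 113.8 to 114.6 Mb.

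In peaks of any height the stretch was dense but not the densest. It held 25 peaks per Mb against 14.4 in the rest of the chromosome, a ratio of 1.74, which was 1.12 with the edges moved outwards by 0.5 Mb. Without strong peaks the values were 17.5 and 14.2 per Mb, a ratio of 1.23. Against a median of 12 peaks per tile, 6 tiles held more peaks than the 20 of the stretch, and 5 of these 6 held at most 1 strong peak. The tile with most peaks held 23, at 63.4 to 64.2 Mb, with 0 strong. When peaks within 50 kb of each other counted once, the ratio of the stretch to the rest fell to 0.939.

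The strong peaks of the stretch fell into 2 groups 478 kb apart. The first group held 4 of them. It opened at 108232117 to 108232307 with 22 tags (row 132), followed by 108351152 to 108351342 with 15 tags (row 310). Next came 108378628 to 108378818 with 21 tags (row 148) and 108384316 to 108384506 with 25 tags (row 87). The last 2 were 5.69 kb apart, the closest pair of strong peaks on the chromosome. The second group held the highest peak of the stretch, at 108861982 to 108862172 with at least 30 tags (row 46), and a peak at 108939043 to 108939233 with 18 tags (row 207), 77.1 kb further on. No pair of strong peaks on the chromosome lay within 5 kb.

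**Figure D5:**
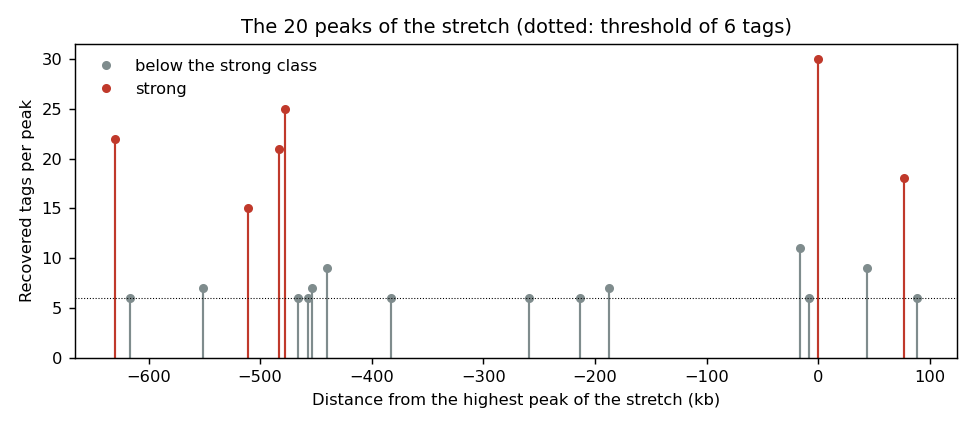
The 20 peaks of the stretch by recovered tags, as distance in kb from its highest peak, with strong peaks in red and the others in grey. The 4 strong peaks at the left and the 2 at the right are separated by 478 kb that holds only peaks of 6 to 11 tags.

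The 14 lower peaks of the stretch were mostly at the threshold. There were 8 of 6 tags and 3 of 7 tags. The peaks at 108421876 and 108905975 had 9 tags each, and the peak at 108845425 had 11 tags (row 1050). That last peak and one of 6 tags at 108853561 lay 16.6 and 8.42 kb before the highest peak of the stretch. Directly after the strong peak at 108384316, 4 peaks of 6 to 9 tags followed within 37.6 kb, at 108396327, 108404663, 108408076 and 108421876. The longest interval without a peak in the stretch was 170.7 kb, from 108674758 to 108845425. The median distance between neighbours was 25.9 kb in the stretch and 44.3 kb over the chromosome.

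Close neighbours of strong peaks were also counted over the whole chromosome. Within 5 kb of a strong peak there was another peak at 2 of 26: a peak of 12 tags 4.21 kb from 73988557 and a peak of 7 tags 3.92 kb from 114516151. Of all 1853 peaks of the chromosome, 222 (11.98%) had another peak within 5 kb, so a count of 2 of 26 shows no difference. Of the 107 peaks of 10 to 13 tags on chromosome 8, 4 lay within 50 kb of a strong peak, or 3.74% (1.03% to 9.30%). These were at 22136208, 73992764, 98377624 and 108845425. The share on the other autosomes was 2.47% (1.81% to 3.29%). For peaks of 6 to 9 tags the shares were 1.92% (1.33% to 2.69%) on chromosome 8 and 1.44% (1.32% to 1.58%) on the others. Both pairs of intervals overlap. Peaks near the same strong peak are counted as if independent, so these intervals are too narrow. Such shares rise with strong peaks per Mb, whose ratio was 1.27 and which the rule used, so nothing is read from them.

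The share of peaks with a close neighbour was lower on chromosome 8 than on most autosomes, and the difference was not tested. Both peaks of a close pair are counted as if independent, so the intervals of these shares are too narrow. They cannot show that chromosome 8 differs from the other autosomes. Within 1 kb of another peak were 24 of 1853 peaks, or 1.30% (0.832% to 1.92%), against 2.20% (2.05% to 2.36%) on the other autosomes, a ratio of 0.589. Only chromosome 12, with 1.198%, had a lower share among the 19 autosomes. Within 5 kb the share was 11.98% (10.5% to 13.5%) against 13.98% (13.6% to 14.4%), a ratio of 0.857, and only chromosome 7 was lower (11.4%). Within 50 kb it was 78.1% against 79.0%, a ratio of 0.988. The closest pairs, at 53158931 and 53159370 and at 100713036 and 100713475, began 439 bp apart, close to the least distance of 382 bp that the caller allowed. No strong peak was among the 15 closest pairs, but only 26 of the 1853 peaks (1.40%) were strong, so nothing is read from that. The filters on local signal act at these distances, and their part in the shares was not tested.

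A few long intervals of chromosome 8 held no peak. The longest ran for 2.21 Mb, from 19919309 to 22128326, and peaks at both of its ends were high: 12 tags at its start and 14, a strong peak, at its end. The next was 1.79 Mb long, from 56146094 to 57937175, and ended in peaks of 6 and 7 tags. Another, of 0.752 Mb, began at 22136208, close after the strong peak that ended the first. Mappable sequence was not analysed here.

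The deposited list holds only peaks that passed the filters, and their effect on chromosome 8 was read from gaps in the peak numbers, which run within each chromosome. On chromosome 8, 498 of 2351 numbers were missing, or 21.2% (19.5% to 22.9%), against 21.0% (20.6% to 21.4%) on the other autosomes. Among the first 10 numbers, 0 were missing on chromosome 8, which allows a share of up to 30.8%, and 65 of 180 (36.1%) were missing on the others. Chromosomes 7 and 10 also missed 0 of their first 10. Among the first 50 numbers 7 were missing on chromosome 8 (14%, 5.82% to 26.7%) and 227 of 900 (25.2%, 22.4% to 28.2%) on the others. The pooled share hides a wide spread. Chromosomes 11 and 9 missed 33 and 29 of their first 50, chromosomes 3 and 15 missed 6 each, and chromosomes 5 and 16 missed 7 each. The remaining autosomes lay between these and missed more than chromosome 8. The 7 were numbers 16, 20, 24, 30, 40, 42 and 48. All 26 strong peaks of chromosome 8 had numbers from 1 to 43. The part of this removal in the count of strong peaks was not tested.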

How the data were processed

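The members and the lists used here were chosen with earlier results of these data known. The peak list deposited by the authors was made with HOMER 4.7 and build mm9, as the submitters' processing notes give them. No source used here names the aligner. Per the file headers, the library held 3643141 tags, peaks were called at a false discovery rate of 0.001 (threshold 6 tags), and 9531 candidates of 47133 were removed by a filter of 4-fold over the control and 241 by one of 4-fold over the local 10000 bp. The score deposited by the authors is 1 in every row.

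Tags were recovered from row order: rows were taken to be sorted by falling count, then chromosome, then position, each step back in that order began a lower count, and of the 43 counts the most frequent was taken as 6. This gave 266288 tags against 268208 in the header, and 74 peaks came out under 6. The recovery step was tested on simulated data made in the assumed order, so the assumption itself was not tested. Lengths are spans from first to last peak; positions are 1-based. Intervals are Clopper-Pearson at 95%, and for ratios of 2 rates they come from the binomial share. No test was made, because there is 1 library and the rule used peak height and place. Protein-coding genes per chromosome were counted in a RefSeq table of GRCm38, from which the order of genes along the chromosome was also taken, and no coordinates are given. The motif, and the genes whose sites are shown, were chosen after the tables were seen; the rule for named genes allowed only Thap11 without an annotation of mm9, and named all strong peaks, those of the stretch and those at the limit. Alternatives were other limits of height, other lengths, counting close peaks once, other edges of the stretch and other distances. Calculations ran in Python 3.11.15 with scipy 1.17.1, pandas 2.3.3 and numpy 2.4.6, and plots in matplotlib 3.10.9.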

Additional observations from a re-analysis of the deposited data

How the results depend on the processing

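Of 27 alternatives, 20 gave values within the counting interval of the reported one and 7 did not. For all peaks per Mb, chromosome 8 over the other autosomes, the ratio of 0.960 became 0.898 with peaks of 9 or more tags and 1.02 per protein-coding gene. For strong peaks the ratio of 1.27 ran from 0.985 without the stretch, an alternative chosen after seeing the data that lowers it by construction, to 1.46 with rows 1 to 200. For all peaks, stretch over the rest, the ratio of 1.74 became 0.939 when peaks within 50 kb counted once, by construction fewer in a dense stretch. For strong peaks, stretch over the rest, 47.9 became 8.87 with rows 1 to 2000, 25.9 with rows 1 to 800, and 31.8 and 21.1 with the edges moved outwards by 0.2 and 0.5 Mb; the same moves of the edges took the ratio of all peaks to 1.45 and 1.12. The ratio of shares with a neighbour, 0.857 within 5 kb, became 0.589 within 1 kb and 0.988 within 50 kb. The percent of candidates missing, 21.2, became 14 among the first 50 numbers. For the other changes the cause was not tested. At this depth values on strong peaks rest on 26 peaks, and 6 in the stretch. No paired analysis was possible because each group holds 1 sample.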

Other observations

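The peak numbers of chromosome 8 followed the order of the list only in part: over its 1853 peaks Spearman's rho between number and row was 0.68, a description across peaks of 1 library. Rows of equal tags were taken to be in order of position, and 46.5% of these peaks had 6 or fewer tags and 27.6% had 7. The value therefore cannot show how far the numbers follow height. Of the 133 peaks of 10 or more tags, 24 had a number above 200 and 5 had one above 500. These 5 began at 47127001 (number 908, 10 tags), 83114802 (number 1836, 12 tags), 87696736 (number 907, 10 tags), 131125037 (number 593, 10 tags) and 131366232 (number 2291, 11 tags), and they were chosen after their values were seen.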
